A study of Mus musculus with 2 samples.

Results

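Siglech plasmacytoid-primed progenitors were read out in single-cell RNA libraries of LSK cells from mouse bone marrow. LSK stands for marrow cells without lineage markers but with Sca-1 and high Kit, among which stem cells and multipotent progenitors are found. A cell belonged to them when its barcode had passed the submitters' quality call and carried at least 2 unique molecular identifiers (UMIs, counts of distinct RNA molecules) of Siglech and at least 1 of Irf8, fewer than 20 UMIs of Mpo and fewer than 3 of the 6 B-lineage genes Cd79a, Cd79b, Vpreb1, Vpreb3, Igll1 and Ebf1. This held for 210 of 18029 passing cells. The cells came from the femurs and tibias of young wild-type (WT) mice and of young mice that the labels give as IκB-negative and the deposited cell table as IkBKO. Each of 2 droplet libraries, replicates 1 and 2, held both genotypes, told apart by antibody tags, so that there were 4 pools of cells. Which IκB genes were altered and how many mice gave a pool are details not given in the sources used here, so p-values speak only of the spread between the pools. The cells were chosen by their UMI counts of Siglech, Irf8, Mpo and the 6 B-lineage genes, so the levels of these 9 genes are given below as a description and never as a test.

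Plasmacytoid dendritic cells (pDCs) are marrow-derived cells that sense viral nucleic acids in endosomes through Toll-like receptors and answer with type I interferon. Their fate is set by the transcription factors TCF4 (E2-2) and IRF8, with SPIB and RUNX2 acting in their maturation and exit from the marrow. SIGLEC-H is a surface lectin of mouse pDCs, LY6D marks lymphoid progenitors from which B cells and pDCs arise, and Cox6a2 encodes a subunit of mitochondrial cytochrome c oxidase best known from striated muscle. IκB proteins bind NF-κB dimers and keep them out of the nucleus until a stimulus releases them, and NF-κB is active in dendritic cell maturation.

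Siglech cells were far more frequent among IkBKO than among WT cells in replicate 2 and about equally frequent in replicate 1. In replicate 1 there were 32 among 3721 WT cells, a share of 0.86% (exact Clopper-Pearson 95% interval 0.589 to 1.21%), and 32 among 3962 IkBKO cells, 0.808% (0.553 to 1.14%). In replicate 2 there were 6 among 4963 WT cells, 0.121% (0.0444 to 0.263%), and 140 among 5383 IkBKO cells, 2.6% (2.19 to 3.06%). The IkBKO share was thus 0.939 times the WT share in replicate 1 and 21.5 times in replicate 2, where the intervals did not overlap. WT pools alone spanned 0.121 to 0.86%, and with 2 libraries no exact test over pools can pass 0.05, so no p-value is given. The intervals cover counting error only.

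**Figure D1:**
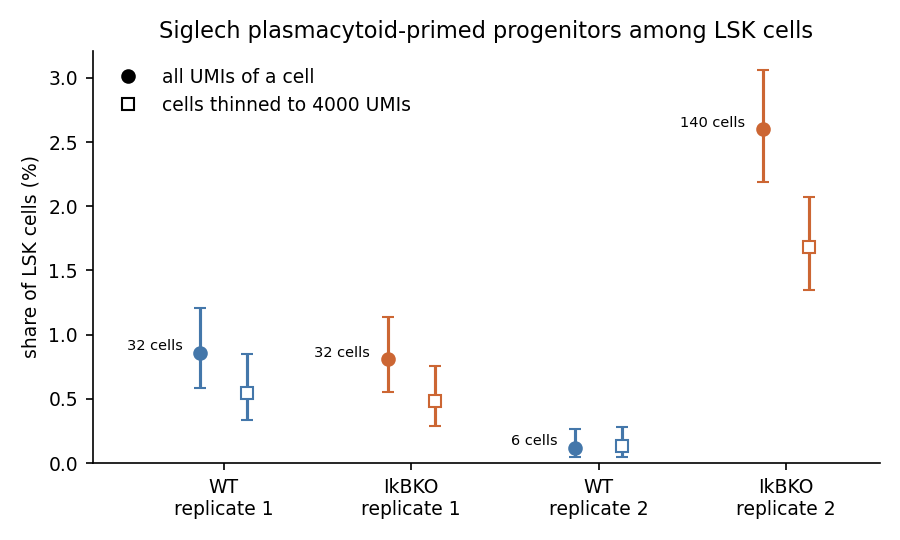
Share of passing LSK cells (%, vertical axis) that were Siglech plasmacytoid-primed progenitors in each pool (horizontal axis), with exact 95% binomial intervals as bars; filled circles use all UMIs and open squares cells thinned to 4000 UMIs. The pools of replicate 1 overlap at 0.86 and 0.808%, while those of replicate 2 stand apart at 0.121 and 2.6%.

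IkBKO cells carried more UMIs than WT cells, and a cell with more UMIs meets the Siglech threshold more easily. The median over all LSK cells was 9963 (WT) and 13709 UMIs (IkBKO) in replicate 1, and 6983 and 9641 UMIs in replicate 2. After every cell was thinned to 4000 UMIs, the shares were 0.549% (20 of 3641 cells) and 0.485% (19 of 3921) in replicate 1 and 0.13% (6 of 4604) and 1.68% (87 of 5172) in replicate 2, which kept the order of the pools within each library. Siglech cells summed to 250291 (WT) and 324231 UMIs (IkBKO) in replicate 1, and to 37120 and 1286465 UMIs in replicate 2. The WT pool of replicate 2 was therefore so shallow that 1 UMI of a gene equalled 26.9 CPM (the UMIs of a gene per 1000000 UMIs of its pool). No member barcode occurred in both libraries, whereas 39 passing barcodes did.

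Shares of neighbouring progenitors that lacked Siglech are given beside these, with no test of a difference. Irf8 cells without Siglech (at least 2 Irf8 UMIs, with the same limits on Mpo and B-lineage genes) made up 11.4% (WT) and 5.58% (IkBKO) of the cells in replicate 1, and 5.4 and 8.45% in replicate 2. Dntt cells without Siglech (at least 2 UMIs of Dntt, which encodes terminal deoxynucleotidyl transferase of early lymphoid cells) made up 23.0 and 6.54% in replicate 1 and 22.3 and 9.36% in replicate 2. Dntt cells were thus fewer in IkBKO than in WT cells of both libraries. Irf8 cells were fewer in replicate 1 (0.491 times) and more frequent in replicate 2 (1.57 times). The Siglech cells, by comparison, were about equally frequent in replicate 1 and more frequent in replicate 2.

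Few LSK cells held Siglech RNA at all. Of the cells with at least 1 Siglech UMI, 63 were WT and 82 IkBKO in replicate 1, and 32 and 249 in replicate 2. At least 2 UMIs were present in 34, 39, 7 and 162 of these, in the same order, and the Irf8 requirement kept 32, 34, 6 and 148. The Mpo limit then removed 4 cells, all IkBKO cells of replicate 2, and the B-lineage limit removed 2 IkBKO cells of replicate 1 and 4 of replicate 2. As a gauge of free RNA, erythroid-primed cells (at least 2 UMIs of Klf1 and 1 of Car1) held a Siglech UMI in 0 of 36 (WT) and 0 of 117 (IkBKO) cells of replicate 1 and in 0 of 7 and 0 of 135 of replicate 2, at median depths of 16171 to 23720 UMIs, above those of the members.

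Other plasmacytoid markers were present in most but not all of these cells. Ly6d was detected in 185 of 210 (88.1%) and Cox6a2 in 112 (53.3%). Tcf4, which encodes the factor that specifies pDCs, was found in 208 cells (99.0%), Bst2, which encodes the virus-tethering surface protein of pDCs, in 207 (98.6%), and Runx2 in 188 (89.5%). Detection of Tcf4 and Bst2 alone does not set the cells apart, since Tcf4 was found in 2678 and Bst2 in 2732 of the 3689 other WT cells of replicate 1, and erythroid-primed cells held them in 66.7 to 85.7% and in 69.4 to 100% by pool. Their levels were 814 to 1616 CPM (Tcf4) and 1206 to 2640 CPM (Bst2) in Siglech cells, and 65.3 to 110 CPM and 99.8 to 144 CPM in erythroid-primed cells. Markers of later pDCs were less frequent, with Spib in 108 cells (51.4%), the homing receptor gene Ccr9 in 85 (40.5%), Pacsin1 in 81 (38.6%) and the kallikrein gene Klk1 in 12 (5.71%). Ly6d reached 2130 (WT) and 1443 CPM (IkBKO) in replicate 1 and 3798 and 4205 CPM in replicate 2, against 13.4 to 59.0 CPM in the other LSK cells. The 4 pools of Siglech cells lay far above all pools of the other cells in Ly6d.

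**Figure D2:**
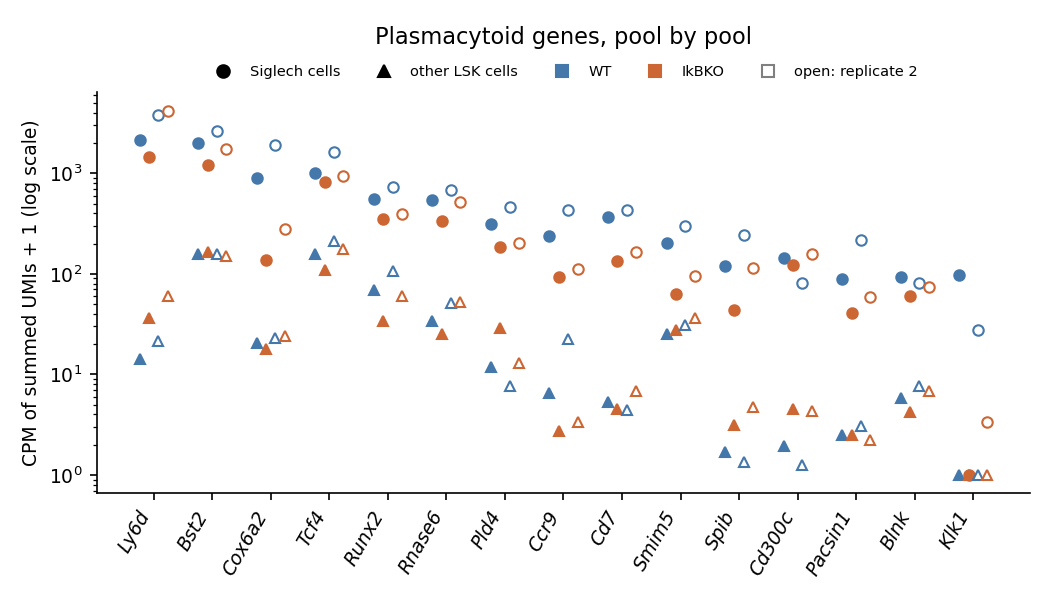
Level of 15 plasmacytoid or accompanying genes (CPM of summed UMIs + 1, log axis) in Siglech cells (circles) and in all other LSK cells (triangles), by genotype (colour) and replicate (filled for 1, open for 2). In Ly6d, Bst2, Tcf4, Runx2 and Rnase6 all Siglech pools lie above all other pools, and in Cox6a2, Ccr9, Cd7, Smim5 and Spib the IkBKO circles lie below the WT circles.

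The genes that set the Siglech cells furthest apart from the other LSK cells, as a description, were Ly6d (90.4 times the mean CPM of the other cells), Cd7 (64.3 times), Cd300c (62.9), Atp1b1 (60.5), Cox6a2 (39.5), Jaml (36.0), Fgr (33.6) and Ccr9 (27.9). The rule for named genes took the 20 highest ratios among 2008 genes with at least 50 CPM in every pool of Siglech cells. It also gave, among others, Mpeg1, Klrd1, Kmo, Ppfia4, Pld4, Nucb2, Il7r, Ctsh, Blnk, Clec10a and 1 unnamed gene model, at 14.1 to 48.1 times. Among them are the endosomal exonuclease Pld4, the interleukin-7 receptor gene Il7r and the adaptor gene Blnk, which lymphoid cells use. The lowest ratios belonged to genes of other lineages. S100a8 of neutrophils was 58.1 times, Elane of granulocyte progenitors 44.3 times and Pf4 of megakaryocytes 32.2 times higher in the other cells, followed by Ctsg, Gata2, Hlf, Prtn3, Muc13, Gstm1 and Apoe at 10.5 to 31.7 times.

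Markers of mature neutrophils and erythroid cells were low in the Siglech cells, while those of early lymphoid cells and of monocyte-dendritic progenitors were not. The 7 mature neutrophil genes summed to 21 to 40.0 CPM against 189 to 1390 CPM in the other cells, and the 8 erythroid genes to 0 to 28.0 CPM against 104 to 288 CPM. Of the B-lineage genes, Cd79b was present in 71 of 210 cells (33.8%), Igll1 in 16, Vpreb1 in 8, Ebf1 in 7, Cd79a in 3 and Vpreb3 in 1, while Pax5 had no UMI. Thus 115 cells held none of the 6 B-lineage genes, 84 held 1 and 11 held 2. Rag1, the recombinase gene of B and T cell precursors, was found in 1 cell. Of the type 1 dendritic cell genes, Xcr1, Itgae and Tlr3 had no UMI, Naaa was in 8 cells and Clec9a in 31. Summed over its 11 genes, the type 1 dendritic cell list stood at 916 to 1220 CPM against 539 to 659 CPM in the other cells. Most of the sum in the Siglech cells came from 1 gene, Cst3, at 700 to 945 CPM, so it says little of the other genes of the list. The 14 early lymphoid genes summed to 2040 to 3480 CPM against 569 to 1280 CPM, and the 11 genes of monocyte-dendritic progenitors to 862 to 2000 CPM against 308 to 935 CPM. Genes of mature dendritic cells and of the MHC class II pathway were present in many IkBKO cells and are given below.

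The sort gate asks for high Kit, but Kit RNA was low in the WT Siglech cells. It stood at 36.0 CPM (WT) and 111 CPM (IkBKO) in replicate 1, and at 26.9 and 73.1 CPM in replicate 2, against 118 to 272 CPM in the other LSK cells. Kit was detected in 6 of 38 WT and 72 of 172 IkBKO Siglech cells, and the genotype difference did not pass (log2 fold change 1.60 ± 0.51 SE, edgeR adjusted p = 0.11). Flt3, which encodes the receptor that dendritic and lymphoid progenitors need, was at 192, 238, 189 and 170 CPM (WT and IkBKO cells of replicate 1, then of replicate 2), and this difference was not called (0.22, adjusted p = 0.93). The Ly6a gene of Sca-1 was detected in 98 of the 210 cells. Given after its values were seen, Ly6a was called higher in IkBKO cells by edgeR (log2 fold change 1.17). It was at 148 (WT) and 392 CPM (IkBKO) in replicate 1 but at 162 and 170 CPM in replicate 2. Counts of surface antibodies were in the files for replicate 1: the median FLT3 tag count was 130 in WT and 121 in IkBKO Siglech cells (126 and 121 in the other cells), that of CD48 530 and 634 (474 and 567), and that of CD150 117 and 105.5 (111 and 109).

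The cells spanned a range of Siglech counts. Just outside the threshold lay 116 cells with 1 UMI, and inside it lay 40 cells with 2 UMIs, 62 with 3 or 4 and 108 with 5 or more. Over all pools, Ly6d was detected in 50.9% of the cells just outside, and in 77.5, 79.0 and 97.2% of the 3 bins inside. Bst2 was detected in 86.2, 97.5, 96.8 and 100% in the same order. In each pool on its own the bin with 5 or more UMIs also had the highest share of cells with Ly6d, at 94.7 and 93.3% in replicate 1 (WT and IkBKO) and at 100 and 98.6% in replicate 2. Il7r had no order that all pools shared. Il7r was found in 60 and 88.9% of the cells with 2 UMIs in replicate 1 (WT and IkBKO) and in 57.9 and 60% of those with 5 or more. Dntt was found in 80, 50 and 57.9% of the 3 bins inside in WT cells of replicate 1. In IkBKO cells it was found in 55.6, 25 and 13.3% (replicate 1) and in 42.3, 29.5 and 30% (replicate 2). The bin with 2 UMIs thus had the highest share with Dntt in each of these pools. The WT pool of replicate 2 had no cell with 2 UMIs, and its later bins stood at 100 and 50%. The depth of the cells was not matched between the bins.

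A subset with RNA of Csf1r, which encodes the macrophage colony-stimulating factor receptor of monocytes and dendritic cell progenitors, differed from the rest. Csf1r was detected in 41 of 210 cells (19.5%): 4 of 32 and 8 of 32 cells of replicate 1 (WT and IkBKO) and 2 of 6 and 27 of 140 of replicate 2. Ly6d was at 383, 540 and 1684 CPM in the Csf1r-positive cells of the 3 larger pools (WT and IkBKO of replicate 1, IkBKO of replicate 2) and at 2620, 2032 and 5215 CPM in the Csf1r-negative ones. Ccr9 was at 18.2, 7.82 and 2.72 CPM in Csf1r-positive and at 297, 148 and 152 CPM in Csf1r-negative cells. Cells with Csf1r therefore held less Ly6d and Ccr9 in these 3 pools. In the WT pool of replicate 2, with 2 such cells, Ly6d had no UMI against 5955 CPM, but Ccr9 was at 521 against 380 CPM. The Csf1r-positive cells of the IkBKO pools were the deeper ones, at medians of 15276 and 13466 UMIs against 7512 and 6377, and those of WT replicate 1 were not (6217 against 6242). A deep cell meets the threshold of 2 Siglech UMIs at a lower CPM, so the Siglech values of 182, 235 and 288 CPM with and 1075, 728 and 770 CPM without Csf1r are a description, and the part of depth in the other values was not tested. Cd74 followed in IkBKO cells, where it was at 798 and 120 CPM with Csf1r and at 6217 and 6509 CPM without. Flt3 did not show this pattern, at 237, 219 and 182 CPM with and 179, 250 and 164 CPM without Csf1r.

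**Figure D3:**
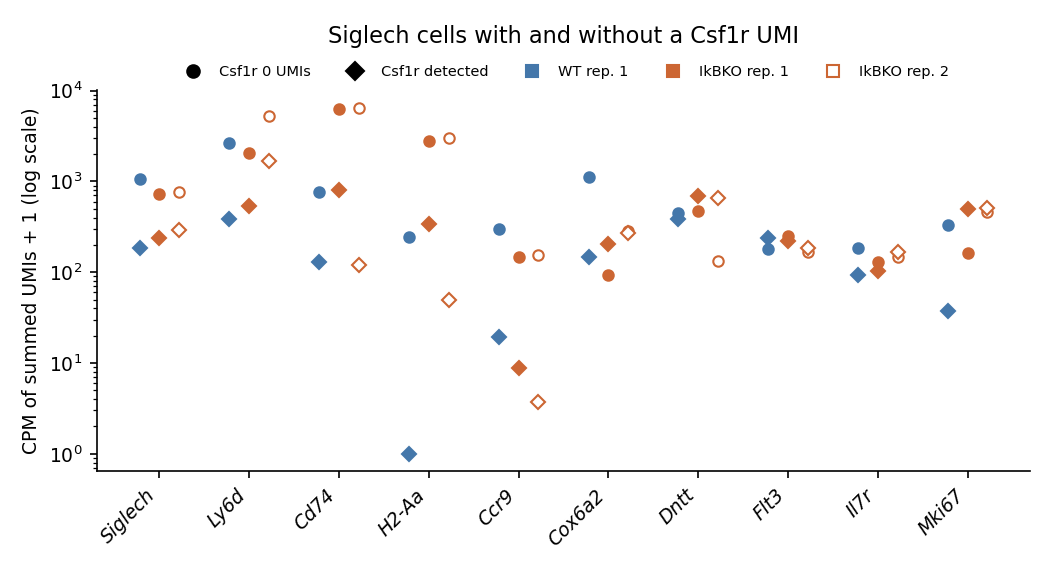
Level of 10 genes (CPM of summed UMIs + 1, log axis) in Siglech cells with a Csf1r UMI (diamonds) and without (circles), in the 3 pools with at least 32 cells; colour marks genotype and open symbols replicate 2. The diamonds lie below the circles in Siglech, Ly6d, Cd74, H2-Aa and Ccr9 and overlap them in Flt3.

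Detection of Dntt also divided the cells. It was found in 19 of 32 WT and 9 of 32 IkBKO cells of replicate 1 and in 4 of 6 and 45 of 140 of replicate 2, that is in 60.5% of WT and 31.4% of IkBKO cells. Within IkBKO cells, Cox6a2 was at 316 CPM in Dntt-positive against 38.0 CPM in Dntt-negative cells of replicate 1, and at 509 against 168 CPM in replicate 2. Cd74 was the reverse, at 641 against 5944 CPM and at 2558 against 5712 CPM. Klf4, which encodes a myeloid transcription factor, was at 0 against 80.8 CPM and at 7.13 against 121 CPM. Cells without Dntt thus held more Cd74 and Klf4 and less Cox6a2 in both IkBKO pools. The WT pools did not share this order. With against without Dntt, WT Cox6a2 was at 964 against 791 CPM in replicate 1 and at 1376 against 2677 CPM in replicate 2. WT Cd74 was at 422 against 1046 CPM and at 1284 against 457 CPM. WT Klf4 was at 5.95 against 134 CPM in replicate 1 and had no UMI in the 6 cells of replicate 2.

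Gene by gene, IkBKO and WT Siglech cells were then compared. Of 4312 genes that passed the filter on low counts, 75 were called at an edgeR adjusted p of at most 0.05 (1.74% of those tested): in IkBKO cells 40 were higher (0.928%) and 35 were lower (0.812%). At an unadjusted p under 0.05 there were 409. All 75 moved the same way in both libraries, and 3 were unnamed gene models. Of the 75, 45 were also called in the same direction in the other LSK cells, where 1687 of 14697 tested genes were called (11.5%; 6.14% higher and 5.33% lower), and 0 were called in the opposite direction. The median log2 fold change of all tested genes in the Siglech cells was 0.04.

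The counts depend on thin pools. DESeq2 called 7 higher and 5 lower, all among those of edgeR, and gave an adjusted p to 40 of the 75. Of the called genes named below, it called Cd74, H2-Aa, H2-Ab1, H2-Eb1, Ifi30, Cox6a2, Klf2, Il12a and Ifi27l2a. A gene passed the filter with 34.8 CPM or more in at least 2 pools. Of the 40 higher genes 20 passed through the IkBKO pools alone and of the 35 lower genes 11 through the WT pools alone. The direction of such a gene was largely fixed by the filter, so the counts of calls in a list are no support for a direction. Leaving out the WT pool of replicate 1 left 25 higher and 7 lower, of which 10 and 5 were shared. With 1 residual degree of freedom a gene, the edgeR fit borrows its spread from other genes, and the WT pool of replicate 2 rests on 6 cells. Here and below, each fit with a pool left out also had no replicate block. The part of the missing pool and that of the missing block were not told apart.

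MHC class II genes, which build the surface molecules that show peptides to CD4+ T cells, were the list with the most genes called, all of them higher. All 11 genes of the list were tested: 6 were higher, 0 lower and 5 did not pass, with a median log2 fold change of 2.60 beside 0.04 for all genes. Of the 6, Ciita and H2-DMb2 passed the filter through the IkBKO pools alone. The median includes both, so it is a description and no support for a direction. The other called genes of the list lay at 2.60 to 3.86. Cd74, the invariant chain that guides class II molecules, was at 627 CPM (WT) and 4080 CPM (IkBKO) in replicate 1, and at 943 and 4680 CPM in replicate 2 (2.60 ± 0.26 SE, adjusted p = 4.3e-10). H2-Aa, the I-A alpha chain (ENSMUSG00000036594, mm10 chromosome 17, 34282744 to 34287823, minus strand), rose from 192 and 162 to 1829 and 2173 CPM (3.40 ± 0.29, adjusted p = 3.5e-12). H2-Ab1, the I-A beta chain, rose from 120 and 108 to 1480 and 1853 CPM (3.75 ± 0.31, adjusted p = 2e-12). The IkBKO pools lay above both WT pools in each of these genes. H2-Eb1, the I-E beta chain, rose from 104 and 26.9 to 1252 and 1388 CPM (3.86 ± 0.33, adjusted p = 2e-12). These chains are neighbours: H2-Ab1 lies at 34257689 to 34269419 and H2-Eb1 at 34305867 to 34316674 on the plus strand of the same chromosome.

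The regulator of these genes and a peptide-loading subunit moved with them. Ciita, the class II transactivator (chromosome 16, 10480059 to 10528418, plus strand), had 0 and 1 UMI in the WT pools and 41 and 196 in the IkBKO pools (126 and 152 CPM; 5.09 ± 0.84, adjusted p = 5.9e-05). Without the WT pool of replicate 1 Ciita was at 2.66 (adjusted p = 0.33) and H2-DMb2 missed the threshold (adjusted p = 0.053). H2-DMb2, a chain of the peptide-loading molecule H2-M (chromosome 17, 34143307 to 34151555, plus strand), had no UMI in 38 WT cells and 239 in IkBKO cells, with 204 and 134 CPM in replicates 1 and 2. Against a floor of 3 counts over the WT group it was at least 14.2-fold higher, and it was detected in 80 of 172 IkBKO cells. H2-DMa (0.84, adjusted p = 0.086), H2-DMb1 (1.00, 0.38), the protease gene Ctss (0.73, 0.28), H2-Oa (0.71, 0.70) and H2-Ob (0.06, 0.99) did not pass. Ifi30, the lysosomal thiol reductase that unfolds antigens, belongs to another list and rose from 156 and 189 to 611 and 731 CPM (2.00 ± 0.27, adjusted p = 1.1e-06).

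Class II promoters share short elements, and the windows of H2-Aa and H2-Eb1 are shown because they held both of those searched. RefSeq promoter windows (build GRCm38.p6, 250 bases before to 50 bases after the RefSeq gene start, gene strand) were present for 8 of the 11 genes and not for H2-Ab1, Cd74 and Ciita. The Y box was searched as CTGATTGG and the core of the X box as CTNGCAAC, on both strands. Capitals mark the matches, the X box before the Y box.
H2-Aa, chr17:34287774-34288073, minus strand: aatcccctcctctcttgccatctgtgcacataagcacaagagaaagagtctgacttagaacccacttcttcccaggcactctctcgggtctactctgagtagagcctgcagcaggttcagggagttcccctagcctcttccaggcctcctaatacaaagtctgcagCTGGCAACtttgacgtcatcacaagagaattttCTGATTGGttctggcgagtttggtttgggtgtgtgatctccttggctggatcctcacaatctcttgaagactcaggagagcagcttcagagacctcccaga
H2-Eb1, chr17:34305617-34305916, plus strand: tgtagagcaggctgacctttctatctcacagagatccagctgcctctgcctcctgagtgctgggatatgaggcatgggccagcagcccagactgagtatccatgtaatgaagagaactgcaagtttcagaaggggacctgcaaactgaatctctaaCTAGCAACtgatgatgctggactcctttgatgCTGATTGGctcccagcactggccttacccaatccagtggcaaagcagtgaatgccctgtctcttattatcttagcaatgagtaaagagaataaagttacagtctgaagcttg
In H2-Aa the X box match began 84 bases and the Y box match 51 bases before the gene start, and in H2-Eb1 94 and 62 bases before it. H2-Oa held the Y box alone and H2-Ob the X box alone, and each window of H2-DMa, H2-DMb1, H2-DMb2 and Ctss held neither match. The H2-DMb2 window (34144999 to 34145298) lies inside the gene as placed above, which starts at 34143307, so the bases before that start were not searched. Of 32851 promoter windows of the same length, 4.1% held the Y box, 3.42% the X box core and 59 windows (0.18%) both. Among the called genes with a window, H2-Aa and H2-Eb1 thus held both matches and H2-DMb2 neither, and a match is a string of letters and says nothing of binding.

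The class II difference was carried by many IkBKO cells rather than a few. Per 10000 UMIs of a cell, the median Cd74 count was 0 (WT) and 62.9 (IkBKO) in replicate 1 and 5.31 and 57.4 in replicate 2. The highest WT cell reached 89.0 and the highest IkBKO cell 181. Cd74 was absent from 17 of 32 and 1 of 6 WT cells and from 6 of 32 and 28 of 140 IkBKO cells, so the genotypes overlapped cell by cell while their medians lay apart. Erythroid-primed cells were far below these levels, with Cd74 at 0 to 24.4 CPM and H2-Aa at 0 to 40.3 CPM. In replicate 1 H2-Aa was found in 0 of 36 WT and 45 of 117 IkBKO erythroid-primed cells. Free RNA and RNA of these cells themselves were not told apart, so the values are at most an upper limit for free RNA. Among Siglech cells with at least 5 Siglech UMIs, Cd74 was at 971 CPM (WT) and 7059 CPM (IkBKO) in replicate 1, and at 929 and 6217 CPM in replicate 2. Cells rich in Siglech thus showed the difference as well.

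**Figure D4:**
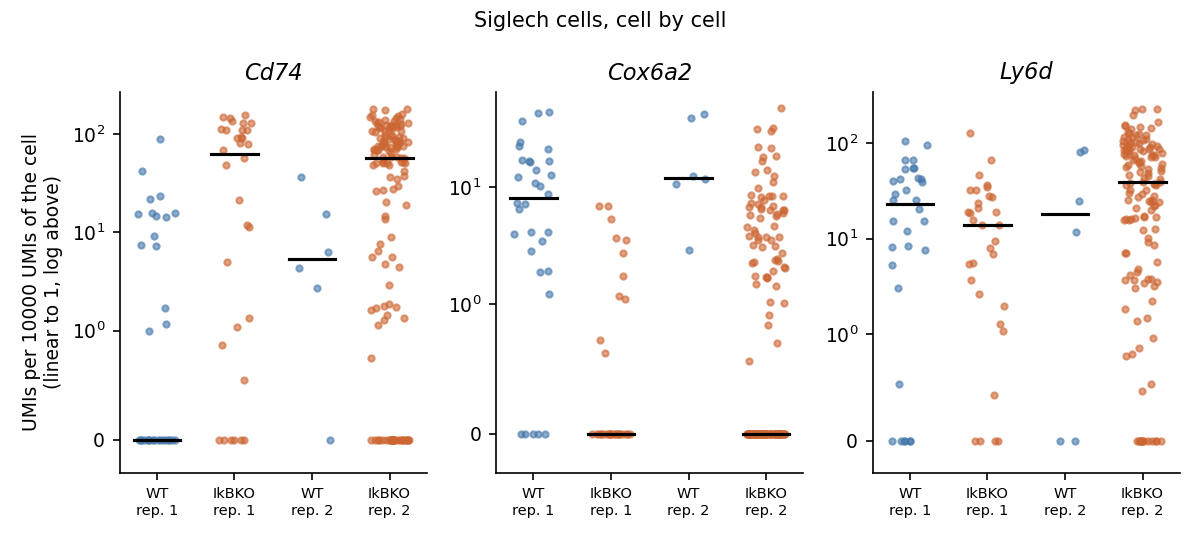
Cd74, Cox6a2 and Ly6d in each Siglech cell (points; UMIs per 10000 UMIs of the cell, linear to 1 and logarithmic above) by pool, with the median of the pool as a black line. Cd74 medians are 0 and 5.31 in WT and 62.9 and 57.4 in IkBKO pools, Cox6a2 medians are 8.08 and 12.1 in WT and 0 in both IkBKO pools, and Ly6d overlaps.

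RNA of mature dendritic cell genes was found in both genotypes. Of 5 genes on this list 2 were tested and called higher, both of which passed the filter through the IkBKO pools alone: Fscn1, the actin-bundling fascin of dendritic cell processes, and Il4i1, an amino acid oxidase of activated antigen-presenting cells. Fscn1 had no UMI in WT cells and stood at 70.9 and 55.2 CPM in IkBKO cells, at least 5.59-fold higher. Il4i1 was at 4.0 and 0 CPM in the WT pools, 130 and 66.1 CPM in the IkBKO pools (5.03 ± 0.82, adjusted p = 5.4e-05). Without the WT pool of replicate 1 neither Fscn1 (adjusted p = 0.47) nor Il4i1 (adjusted p = 0.31) passed. The list summed to 40.0 (WT) and 250 CPM (IkBKO) in replicate 1 and to 108 and 166 CPM in replicate 2. At least 1 UMI of the list was present in 6 of 32 WT and 22 of 32 IkBKO cells of replicate 1 and in 3 of 6 and 68 of 140 cells of replicate 2.

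Without those cells, a choice made after the data were seen, 26, 10, 3 and 72 cells remained (WT and IkBKO of replicate 1, then of replicate 2), and 5 genes were higher and 10 lower among 2746 tested. H2-Ab1 (2.03 ± 0.43, adjusted p = 0.0015) and H2-Aa (1.58 ± 0.40, adjusted p = 0.02) still rose and H2-Eb1 missed the threshold (1.68 ± 0.47, adjusted p = 0.052). Cd74 (0.81 ± 0.44, adjusted p = 0.90) and Ifi30 (0.72, adjusted p = 0.97) did not pass. The cells were split by genes that themselves differed between the genotypes, which took out 22 of 32 IkBKO but 6 of 32 WT cells of replicate 1, so these values describe the cells left. The part of the others in the class II difference was not tested.

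The other highest genes by fold change had varied roles. Igkc, the constant region of the immunoglobulin kappa light chain (chromosome 6, 70726435 to 70726966, plus strand), was at 32.0 and 0 CPM in the WT pools, 373 and 724 CPM in the IkBKO pools (3.98 ± 0.41, adjusted p = 6.3e-10), and was detected in 3 of 38 WT and 113 of 172 IkBKO cells. In Dntt cells without Siglech of the same libraries Igkc was at 1.41 to 4.10 CPM. Plbd1, a phospholipase B-like protein, had no UMI in WT and 171 in IkBKO cells (at least 10.2-fold higher). Sema4a, a semaphorin that dendritic cells use in T cell contact, and Gdpd3, a lysophospholipase D, were likewise without a UMI in WT cells and at least 3.81-fold and 3.63-fold higher. Icosl, the ligand of the T cell co-stimulator ICOS, rose by 4.47 ± 0.88, Serpina3g, a serine protease inhibitor, by 4.18 ± 0.71, Slamf7 by 4.05 ± 0.93 and Shtn1 by 3.92 ± 1.08. Each of these 8 genes passed the filter through the IkBKO pools alone, and the last 4 had 1 or 2 WT UMIs. Without the WT pool of replicate 1 only Igkc of them was called, and the others had adjusted p of 0.18 (Plbd1) to 0.54 (Sema4a, Gdpd3 and Shtn1). Without the IkBKO pool of replicate 2 the calls of Sema4a (adjusted p = 0.09), Gdpd3 (0.29), Slamf7 (0.28) and Shtn1 (0.28) were lost, and without the WT pool of replicate 2 that of Shtn1 (0.056). With no replicate block neither Gdpd3 (0.052) nor Shtn1 (0.12) passed. Chosen after its values were seen, the unnamed gene AA465934 was present in 84 of 172 IkBKO and 0 of 38 WT cells. Among genes of monocyte-dendritic progenitors, Ifi30 and Ms4a6c (1.59 ± 0.34, adjusted p = 0.0027; 0.18 without the IkBKO pool of replicate 1 and 0.061 with no replicate block) were higher and the other 5 tested, Csf1r among them (0.97, adjusted p = 0.78), did not pass.

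Genes of pDC identity went the other way or did not pass. Of 27 listed genes 2 belonged to the rule, and 21 of the others were tested: 0 were higher, 5 lower and 16 did not pass. The median log2 fold change was -0.69 beside 0.04 for all genes. Not all of the 16 leaned down. Cd209d (1.0, edgeR adjusted p = 0.5) and Lag3 (0.60, 0.83) were higher in IkBKO than in WT cells of both libraries. Ly6c2 (0.30), Plac8 (0.18) and Cd300c (0.06) lay above 0 without a shared direction, and the rest of the 16 lay below 0. Cox6a2 (ENSMUSG00000030785, chromosome 7, 128205435 to 128206387, minus strand) was at 907 CPM (WT) and 136 CPM (IkBKO) in replicate 1, and at 1913 and 279 CPM in replicate 2 (-2.68 ± 0.22 SE, adjusted p = 2e-12). Both IkBKO pools lay below both WT pools. It was detected in 33 of 38 WT cells (86.8%) and 79 of 172 IkBKO cells (45.9%), and the median per 10000 UMIs was 8.08 and 12.1 in WT and 0 in both IkBKO pools. Among cells with at least 5 Siglech UMIs it was at 1507 and 2619 CPM in the WT pools, 111 and 294 CPM in the IkBKO pools. Without the cells that held mature dendritic cell genes it fell by 2.78 (adjusted p = 4.5e-09).

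The other pDC genes that fell were Upb1, Mzb1, Smim5 and Ccr9. Upb1, an enzyme of pyrimidine breakdown, fell from 220 and 189 to 21.6 and 79.3 CPM (-2.19 ± 0.42, adjusted p = 7.7e-04). Its difference was -1.36 (adjusted p = 0.5) without the WT pool of replicate 1 and -1.37 (adjusted p = 0.26) without the IkBKO pool of replicate 1, and the call held in 7 of 14 alternatives. Mzb1, an endoplasmic reticulum chaperone of antibody-secreting cells and pDCs, fell from 108 and 135 to 18.5 and 64.5 CPM (-1.72 ± 0.45, adjusted p = 0.031), and this call held in 4 of 13 alternatives. It was lost without WT replicate 1 (-1.14, adjusted p = 0.61), IkBKO replicate 1 (-0.78, 1.0) or WT replicate 2 (-1.12, 0.26) and with no replicate block (0.35). Smim5, a small membrane protein, fell from 200 and 296 to 61.7 and 94.8 CPM (-1.61 ± 0.36, adjusted p = 0.005). Ccr9, the chemokine receptor of gut-homing pDCs (chromosome 9, 123678439 to 123784330, plus strand), fell from 236 and 431 to 92.5 and 110 CPM (-1.56 ± 0.32, adjusted p = 0.0019). Without the IkBKO pool of replicate 1 neither Smim5 (adjusted p = 0.57) nor Ccr9 (adjusted p = 0.24) passed, and without the WT pool of replicate 1 Smim5 did not (adjusted p = 0.3). Klk1 was too low to be tested, with 24 and 1 UMIs in the WT and 0 and 3 in the IkBKO pools, in 9 of 38 WT and 3 of 172 IkBKO cells.

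The transcription factors of the lineage did not pass. Tcf4 was at 995, 814, 1616 and 930 CPM (WT and IkBKO of replicate 1, then of replicate 2; -0.45, adjusted p = 0.53), Runx2 at 551, 352, 727 and 393 CPM (-0.69, 0.15) and Spib at 120, 43.2, 242 and 113 CPM (-1.22, 0.14). Bst2 was at 2018, 1206, 2640 and 1727 CPM (-0.62, adjusted p = 0.27). All 4 were lower in IkBKO than in WT cells of both libraries, but by amounts that the fit did not separate from the spread. Ly6d had no shared direction (-0.15 ± 0.24, adjusted p = 0.95). Over the whole list of dendritic cell transcription factors, 14 genes besides Irf8 were tested and none was called by edgeR, and of 5 tested genes of endosomal nucleic acid sensing none was called either. Of the rule genes, Siglech was at 879, 534, 1051 and 632 CPM and Irf8 at 2074, 1650, 3098 and 1862 CPM, given as a description.

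**Figure D5:**
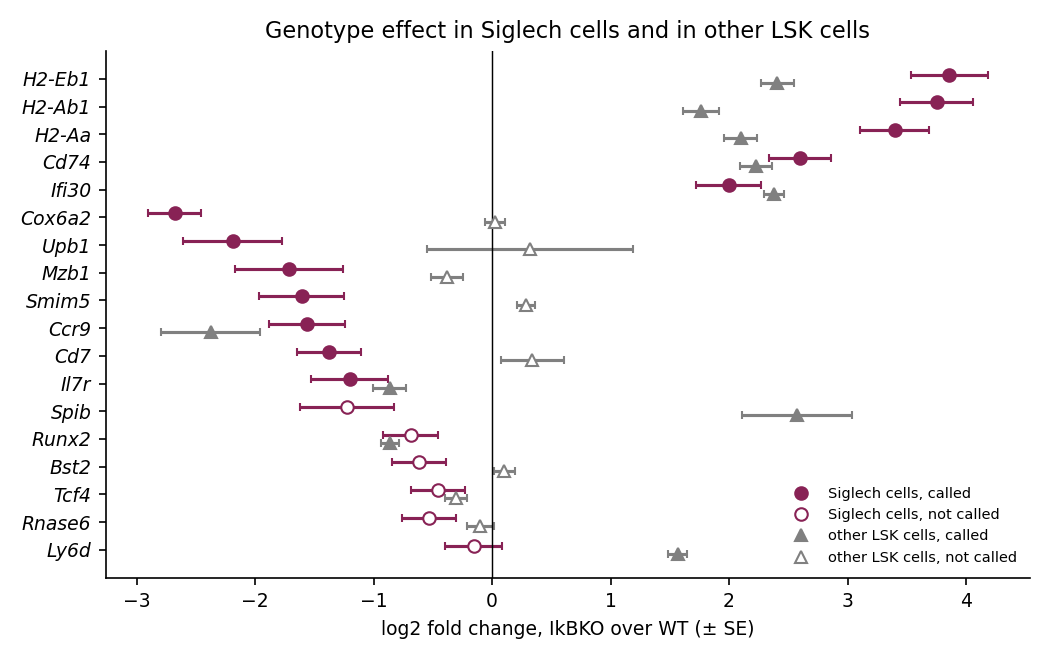
Log2 fold change of IkBKO over WT (± SE, horizontal axis) for 18 genes in Siglech cells (circles) and in all other LSK cells (triangles); filled symbols passed an edgeR adjusted p of 0.05 in their own fit. The class II genes lie to the right in both, whereas Cox6a2 is at -2.68 in Siglech cells and 0.02 in the others, and Ly6d at -0.15 and 1.56.

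Early lymphoid genes fell in part. Of 10 tested, 0 were higher, 3 lower and 7 did not pass. Among the lower genes, Cd7, a surface protein of lymphoid progenitors, fell from 364 and 431 to 133 and 164 CPM (-1.38 ± 0.27, adjusted p = 0.0011). Its call was lost without WT replicate 1 (-1.23, adjusted p = 0.24), IkBKO replicate 1 (-1.16, 0.61) or IkBKO replicate 2 (-1.48, 0.053). Il7r was at 164 and 117 CPM in replicate 1 and at 647 and 152 CPM in replicate 2 (-1.20 ± 0.32, adjusted p = 0.034). Without the WT pool of replicate 2, that is without 6 cells, and with no replicate block, the Il7r difference was -0.26. It was -0.89 without IkBKO replicate 1 and -1.25 without IkBKO replicate 2, and the call was lost in each of these fits. With all pools and no replicate block Il7r did not pass either (edgeR adjusted p = 0.64). Dntt (0.25, adjusted p = 0.88) and Flt3 did not pass. Il6st, the gp130 receptor subunit, was the cytokine receptor gene called higher, from 36.0 and 26.9 to 126 and 99.5 CPM (1.83 ± 0.51, adjusted p = 0.045), and 11 of 13 tested receptor genes did not pass. The Il6st call was lost when any 1 pool was left out (1.53 to 2.27, adjusted p = 0.073 to 0.54) and with no replicate block (0.079), and it held in 3 of 11 alternatives.

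The lowest fold changes outside these lists belonged to genes of varied roles. Timp2, an inhibitor of matrix metalloproteinases, fell from 47.9 and 162 to 3.08 and 10.9 CPM (-3.74 ± 0.76, adjusted p = 0.0016). Its call was lost without WT replicate 1 (-3.92, adjusted p = 0.087), IkBKO replicate 1 (-2.65, 0.23) or WT replicate 2 (-2.46, 0.46). Klf2, a transcription factor of lymphocyte quiescence and trafficking, fell from 128 and 323 to 15.4 and 28.8 CPM (-3.23 ± 0.45, adjusted p = 1.3e-06) and was called in all 14 alternatives, as were Cox6a2 and H2-Ab1. Il12a, the p35 subunit of interleukin 12, fell from 232 and 431 to 55.5 and 83.2 CPM (-2.14 ± 0.34, adjusted p = 3.8e-05). Ifi27l2a, an interferon-stimulated gene, fell from 795 and 189 to 142 and 60.6 CPM (-2.25 ± 0.27, adjusted p = 9e-08), and the other 4 tested genes of its list did not pass. Without the WT pool of replicate 1 the Ifi27l2a difference was -0.84 (adjusted p = 0.66), and with no replicate block it was not called (adjusted p = 0.68). Klf2 and Jund (-1.92 ± 0.38, adjusted p = 0.0013) were the 2 of 8 tested immediate-early genes that fell. Jund was at -0.45 (adjusted p = 0.88) without the WT pool of replicate 1, and DESeq2 gave it an adjusted p of 0.81. Also lower were Atp2a1, a calcium pump, Sdc1, syndecan-1, Tmem108, Nkg7, a protein of cytotoxic granules, Cd72, a B cell co-receptor, and Ldhb, a lactate dehydrogenase subunit, at -3.16 to -2.10. These 6 genes, Timp2 and Klf2 passed the filter through the WT pools alone. Without the WT pool of replicate 1 the 6 had adjusted p of 0.053 (Tmem108) to 0.76 (Nkg7), and without the IkBKO pool of replicate 1 all of the 6 but Tmem108 lost their call (adjusted p = 0.079 to 0.57). Atp2a1 did not pass without the WT pool of replicate 2 either (adjusted p = 0.098).

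Within the IκB and NF-κB family the RNA was sparse. Nfkbie, which encodes IκBε (chromosome 17, 45555703 to 45563169, plus strand), had 6 and 3 UMIs in the WT pools and 0 and 5 in the IkBKO pools, in 8 of 38 WT and 5 of 172 IkBKO cells. Nfkbib, which encodes IκBβ, had 6 and 1 UMIs in WT and 3 and 13 in IkBKO pools. Neither passed the filter on low counts, and tags from the 3′ ends of transcripts need not cover a deleted part. Of 8 family genes tested, Bcl3, an atypical IκB protein that binds p50 and p52, was higher, from 7.99 and 0 to 105 and 44.3 CPM (3.76 ± 0.75, adjusted p = 0.0013). It had 2 UMIs in WT cells, passed the filter through the IkBKO pools alone, and was not called without IkBKO replicate 1 (2.65, adjusted p = 0.99), without WT replicate 1 (adjusted p = 0.45) or with no replicate block (adjusted p = 0.083). Nfkb2 (3.62 ± 1.14, adjusted p = 0.11), Relb (2.67, 0.27) and Nfkbia (0.99, 0.49) did not pass. Of 5 tested NF-κB target genes none was called by edgeR, with Tnfaip3 at 12 and 26.9 CPM in the WT pools, 70.9 and 47.4 CPM in the IkBKO pools (2.23 ± 0.70, adjusted p = 0.11).

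Whether an effect differed between Siglech cells and the other LSK cells was tested as an interaction. Of 4312 genes, 16 were called (0.371%), 8 with a higher effect in the Siglech cells (0.186%) and 8 with a lower one (0.186%). The lower ones include Siglech, whose value the choice of the cells fixes and which is not read as a test. Of the higher ones, H2-DMb2, Plbd1, Lyst, Il11ra1 and Chka passed the filter on Siglech cells through the IkBKO pools alone. Among the lower ones, Nkg7 passed through the WT pools alone. The direction of these genes in Siglech cells was largely fixed by the filter, so the split is no support for a direction. Cox6a2 summed over the other cells was at 19.7 and 22 CPM in the WT pools, 17.1 and 23.0 CPM in the IkBKO pools (0.02 ± 0.09, adjusted p = 0.87), and its effect in Siglech cells differed from this by -2.49 ± 0.28 log2 units (adjusted p = 2.9e-10). In Dntt cells without Siglech it was at 68.7 and 73.0 CPM in the WT pools, 156 and 137 CPM in the IkBKO pools, higher in the IkBKO pools. H2-Ab1 rose more in Siglech cells than elsewhere (difference 2.21 ± 0.32, adjusted p = 1.1e-06), as did H2-Eb1 (1.63 ± 0.35, adjusted p = 0.0044) and H2-Aa (1.43 ± 0.30, adjusted p = 0.0035), each of which also rose in the other cells by 1.77 to 2.41. Ly6d rose in the other cells (1.56 ± 0.08) beside -0.15 ± 0.24 in Siglech cells, a difference of -1.60 ± 0.24 (adjusted p = 4.9e-06). Spib rose in the other cells from 0.69 and 0.33 to 2.13 and 3.75 CPM, and its effect in Siglech cells was lower by 3.40 ± 0.68 (adjusted p = 0.0018). Ly6d was detected more often at higher Siglech counts, by which the cells were chosen. In the other cells it was found in 98 of 3689 WT and 174 of 3930 IkBKO cells of replicate 1, and in 119 of 4957 and 278 of 5243 of replicate 2. The part of the choice of cells in the Ly6d and Spib differences was not tested. Cd74 was not among the 16 (difference 0.48 ± 0.24, adjusted p = 0.79), and it rose by 2.23 ± 0.13 in the other cells.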

How the data were processed

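RNA was measured in 2 libraries made with a Chromium 3′ v3.1 kit. Per the labels' protocols, each replicate took 30000 sorted cells per condition, which were marked with antibodies and sequenced together. The deposited matrices hold raw UMI counts for 32285 genes, not normalized, and the deposited cell table lists the quality call and genotype of a barcode, by rules not given in the sources used here. Per the file headers the matrices came from Cell Ranger 6.0.0, while the submitters' processing notes name Cell Ranger 7.0, Seurat 4.3.0 and mm10. No further cell filter or doublet caller was applied, and multiplets that the deposited call kept were not sought.

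Counts of the Siglech cells were summed per library and genotype. The test was the quasi-likelihood F test (robust, TMM, filterByExpr) in edgeR 4.0.16 under R 4.3.3, two-sided, with replicate as a block because each library held both genotypes, and with Benjamini-Hochberg adjusted p-values called at 0.05. Over 4312 genes the deviations of same-numbered pools from their genotype means correlated at 0.14. Differences from the other LSK cells were tested as an interaction over 8 pools with pool as a block, which shares cells of 1 library. Log2 fold changes (IkBKO over WT) carry standard errors. A gene with no UMI in 1 genotype has a fold bound from a floor of 3 counts over that genotype's 2 pools. Alternatives used DESeq2 1.42.0, RLE size factors, no filter, no block, each pool left out, other thresholds and cells thinned to 4000 UMIs. The fits with a pool left out were run with no block. The genotype and interaction fits of edgeR were also run on simulated pool counts, and the other steps were not.

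The members, gene lists, tests and alternatives were chosen with earlier results of these data known. Named were, of the called genes with 1 direction in both libraries and a genotype mean of 20 CPM or more, the 12 highest and 12 lowest, the pDC and IκB and NF-κB lists, up to 4 members with the smallest p of each other list, the genes called in the interaction, and the 20 highest and 10 lowest ratios to the other cells. Genes tested in a list but named with values beyond this were chosen after their values were seen. A few genes that these rules name are not reported here. Coordinates are from GENCODE M21, which held 32158 of the gene identifiers (99.6%), and promoters from RefSeq.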

Additional observations from a re-analysis of the deposited data

Results flagged for a closer look

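The genotype effect differed between Siglech cells and the other LSK cells, by the interaction test of edgeR at an adjusted p of at most 0.05, for 16 genes, of which 14 are given here, Siglech aside. It was lower in the Siglech cells for Cox6a2 (-2.49 log2 units), Spib (-3.40), Nkg7 (-2.10), Smim5 (-1.71), Ly6d (-1.60) and Cd7 (-1.56). It was higher for Lyst, a regulator of lysosome size (3.27), Il11ra1, an interleukin 11 receptor chain (3.22), Chka, a choline kinase (2.51), H2-Ab1 (2.21), H2-Eb1 (1.63) and H2-Aa (1.43). For H2-DMb2 (adjusted p = 0.039) and Plbd1 (adjusted p = 0.023), which had no UMI in WT Siglech cells, no size of the difference is given. Both passed the filter through the IkBKO pools alone, and Nkg7 through the WT pools alone. Lyst, Il11ra1 and Chka rose in Siglech cells (3.23 ± 0.68, 2.88 ± 0.70 and 2.42 ± 0.54) and were at 0.16, -0.11 and -0.03 in the other cells. They passed the filter on low counts through the IkBKO pools alone, and without the WT pool of replicate 1 their rise was not called (adjusted p = 0.45, 0.3 and 0.45); Il11ra1 lost its call also without the IkBKO pool of replicate 2 (0.16). Spib was not called in Siglech cells (-1.22 ± 0.40) and rose by 2.57 ± 0.46 in the other cells, where both WT pools were under 1 CPM. The part that the choice of cells by Siglech had in the Ly6d and Spib differences was not tested.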

How the results depend on the processing

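Beside 40 genes higher and 35 lower, no filter gave 21 and 8 and DESeq2 7 and 5, and at least 1 Siglech UMI gave 107 and 156 where at least 3 gave 5 and 3. No B-lineage gene gave 19 and 7, and no cell with mature dendritic cell genes, added after the data were seen, 5 and 10. Leaving out 1 pool gave 25 to 51 higher and 7 to 47 lower, with the lone pool assumed to vary like the others; the extremes were WT replicate 1 (25 and 7) and WT replicate 2 (51 and 47). The fits with a pool left out had no replicate block either. With all pools and no replicate block 30 were higher and 29 lower, and 29 and 26 of these were among those of the blocked fit. RLE size factors gave 43 and 48, all 75 included, and the interaction count was 16 or 17. The cause of these changes was not tested. The share difference (IkBKO minus WT, in percentage points; -0.0523 in replicate 1 and 2.48 in replicate 2) was -0.0866 and 3.35 with at least 1 Siglech UMI, 2.0 in replicate 2 with at least 3, -0.213 and 1.37 with no B-lineage gene, -0.0647 and 1.55 after thinning, and -0.446 and 1.28 without mature dendritic cell genes. It kept its sign in all of these. Of 42 called genes followed through up to 14 alternatives, none reversed. Cox6a2, H2-Ab1 and Klf2 passed in all 14, Cd74, H2-Aa, Ifi30 and Il12a in 13. With at least 1 Siglech UMI, H2-Aa (3.44, adjusted p = 0.37) and H2-Eb1 (3.8, adjusted p = 0.35) kept their size and not the call. A share of 0 in 38 WT cells and the 37120 UMIs of the WT pool of replicate 2 limit what can be said of low genes.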

Other observations

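Siglech cells held RNA of dividing cells at levels like or above those of the other LSK cells. The 14 mitosis genes summed to 3750 and 4070 CPM (WT and IkBKO cells of replicate 1) and to 7600 and 5420 CPM (replicate 2), against 2340 to 3350 CPM in the other cells. The 14 S phase genes summed to 1400 to 1590 CPM in Siglech cells and to 1380 to 1740 CPM in the others. Of 13 S phase and 14 mitosis genes tested, edgeR called none at an adjusted p of 0.05. Secretory pathway genes, which pDCs and plasma cells use in bulk, summed to 3640 to 4120 CPM in Siglech cells and to 2580 to 3910 CPM in the others. In replicate 1 the IkBKO Siglech cells, at 3640 CPM, lay below the other IkBKO cells, at 3910 CPM. Mzb1 was the 1 called of 15 tested. The 3 survival genes tested, Mcl1, Bax and Bcl2, lay between -0.12 and 0.13 log2 units and did not pass.

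The antibody tags of a cell's own genotype made up a median of 64.3% of hashing counts in WT and 91.7% in IkBKO Siglech cells of replicate 1 and 65.1 and 93.6% in replicate 2, close to 67.6, 91.7, 70.8 and 92.9% in the other cells. WT Siglech cells thus had the less distinct tags, as WT cells had in general. Their lower quartiles were 57.5 and 60.8% in replicates 1 and 2, against 63.6 and 65.5% in the other WT cells. The lowest WT Siglech cells were at 49.9 and 53.8% (31.7 and 35.0% in the other WT cells), and the lowest IkBKO Siglech cells at 87.0 and 74.6%. Whether any WT Siglech cell was assigned to the wrong genotype was not tested.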
